A study of Mus musculus with 8 samples.

Results

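Expression of 9 genes of immune checkpoint and costimulatory signalling, Cd274, Pdcd1lg2, Cd80, Cd86, Cd40, Cd47, Sirpa, Lgals9 and Havcr2, was followed in a tumour line and a macrophage line. They were taken by symbol from the array annotation, which pairs these 9 of its 18193 named genes with 21 probe sets, each with 1 symbol. Most of them encode ligands, but Cd40, Sirpa and Havcr2 encode receptors, so the set holds both sides of several pairs. Of the 9 genes, 8 were bright enough to be tested among 13196 genes, and 15 of the 21 probe sets passed the same floor.

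CT26 cells, a mouse colon tumour line labelled epithelial, and RAW264 cells, a mouse macrophage line (RAW below), were each grown in RPMI 1640 medium either alone or in co-culture. In co-culture the macrophages sat in a transwell insert above the tumour cells, so that secreted molecules passed between the lines while the cells stayed apart. Wells received 10000 CT26 cells in 1.5 ml and inserts 10000 RAW cells in 0.5 ml, and inserts entered the wells after 8 h. The sources used here do not give the time to harvest. They also do not state whether cells grown alone sat beside an empty insert or well. The 4 groups, RAW co-culture and RAW alone for the macrophages and CT26 co-culture and CT26 alone for the tumour cells, had 2 arrays each, 1 from each of 2 experiments, made from 5 µg of total RNA per array. Each line is a single established line, and no T cells were cultured in any group. CT26 cells were detached with trypsin and EDTA, and RAW cells were lysed in place, so line and harvest cannot be told apart in any comparison between lines.

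T cells need a costimulatory signal beside antigen, and macrophages and other antigen-presenting cells supply it through surface ligands. CD80 and CD86 bind CD28, which activates, and CTLA4, which inhibits, while PD-L1 (Cd274) and PD-L2 (Pdcd1lg2) bind the inhibitory receptor PD1, and CD40 on the presenting cell receives the CD40 ligand of helper T cells. CD47 is carried by most cells and restrains phagocytosis by binding SIRPA on macrophages, and galectin-9 (Lgals9) is a secreted lectin among whose partners is TIM3 (Havcr2), an inhibitory receptor of T cells and myeloid cells.

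Values are log2 expression, and the floor for a measurable signal, the 40th percentile of each array, lay between 5.21 and 5.28. A gene was called changed at a Benjamini-Hochberg adjusted p under 0.05 in limma over all 13196 genes, either without a block, with the experiment as a block shared by the lines, or with a block for each line. The lines matched their labels in part. With both lines grown alone, 9 of 10 macrophage markers were called higher in RAW and Mrc1 was called lower. Of 8 epithelial markers 5 were tested, and 2 were called, both higher in CT26. These keratin genes, Krt18 and Krt20, stood at 10.19 ± 0.01 and 11.54 ± 0.02 in CT26 alone (SD, n = 2). The epithelial markers Cdh1, Vil1 and Cldn7 were under the floor in every group. Of 5 tested mesenchymal markers 4 were also called higher in CT26, namely Col1a1, Col1a2, Sparc and Pdgfrb. In this comparison 34.6% of all genes were called without a block. The summed linear level of the macrophage markers was 114238 to 122718 in RAW alone, 115598 to 122459 in RAW co-culture, 1646 to 1653 in CT26 alone and 1520 to 1567 in CT26 co-culture. The summed level of 6 measured T and B lymphocyte markers lay between 351 and 384 on all 8 arrays, and 0 of 4 tested were called in either co-culture comparison by limma without a block, 0 at an unadjusted p under 0.05. On bulk arrays fewer expressing cells and less RNA per cell cannot be told apart.

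Lgals9 showed the largest difference of the 9 genes between RAW co-culture and RAW alone. Its mean lay below both CT26 groups in RAW alone and above both in RAW co-culture. The gap between RAW co-culture and CT26 co-culture was not called without a block (limma, adjusted p = 0.307). The probe set of Lgals9 (1421217_a_at) read 7.86 and 8.84 in RAW alone and 10.77 and 11.77 in RAW co-culture, in experiments 1 and 2. In CT26 it read 10.32 and 10.68 alone and 10.51 and 10.81 in co-culture. RAW alone was thus the low group, both co-cultured RAW arrays lay above both RAW alone arrays, and in CT26 the groups overlapped. The RAW mean was 8.35 ± 0.69 alone and 11.27 ± 0.70 in co-culture (SD, n = 2), a difference of 2.92 ± 0.41 log2 units (SE; 95% confidence interval 1.94 to 3.90), or 7.57-fold. Experiment 2 was the higher in both groups, and the change itself was 2.91 in experiment 1 and 2.93 in experiment 2.

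Without a block this difference missed the threshold (limma, adjusted p = 0.0610). It passed with the experiment as a shared block (adjusted p = 0.00338) or with separate blocks for the lines (adjusted p = 2.49e-05). It was the 7th highest change of 13196 genes. In CT26 the change of Lgals9 was 0.16 ± 0.41 (interval -0.82 to 1.14; adjusted p = 1.00), with 0.19 in experiment 1 and 0.13 in experiment 2. The RAW change exceeded the CT26 change by 2.76 ± 0.58 log2 units (interval 1.38 to 4.14), a difference that was not called without a block (adjusted p = 0.643) and was called with the shared block (adjusted p = 0.0438) or separate blocks (adjusted p = 0.000529).

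**Figure D1:**
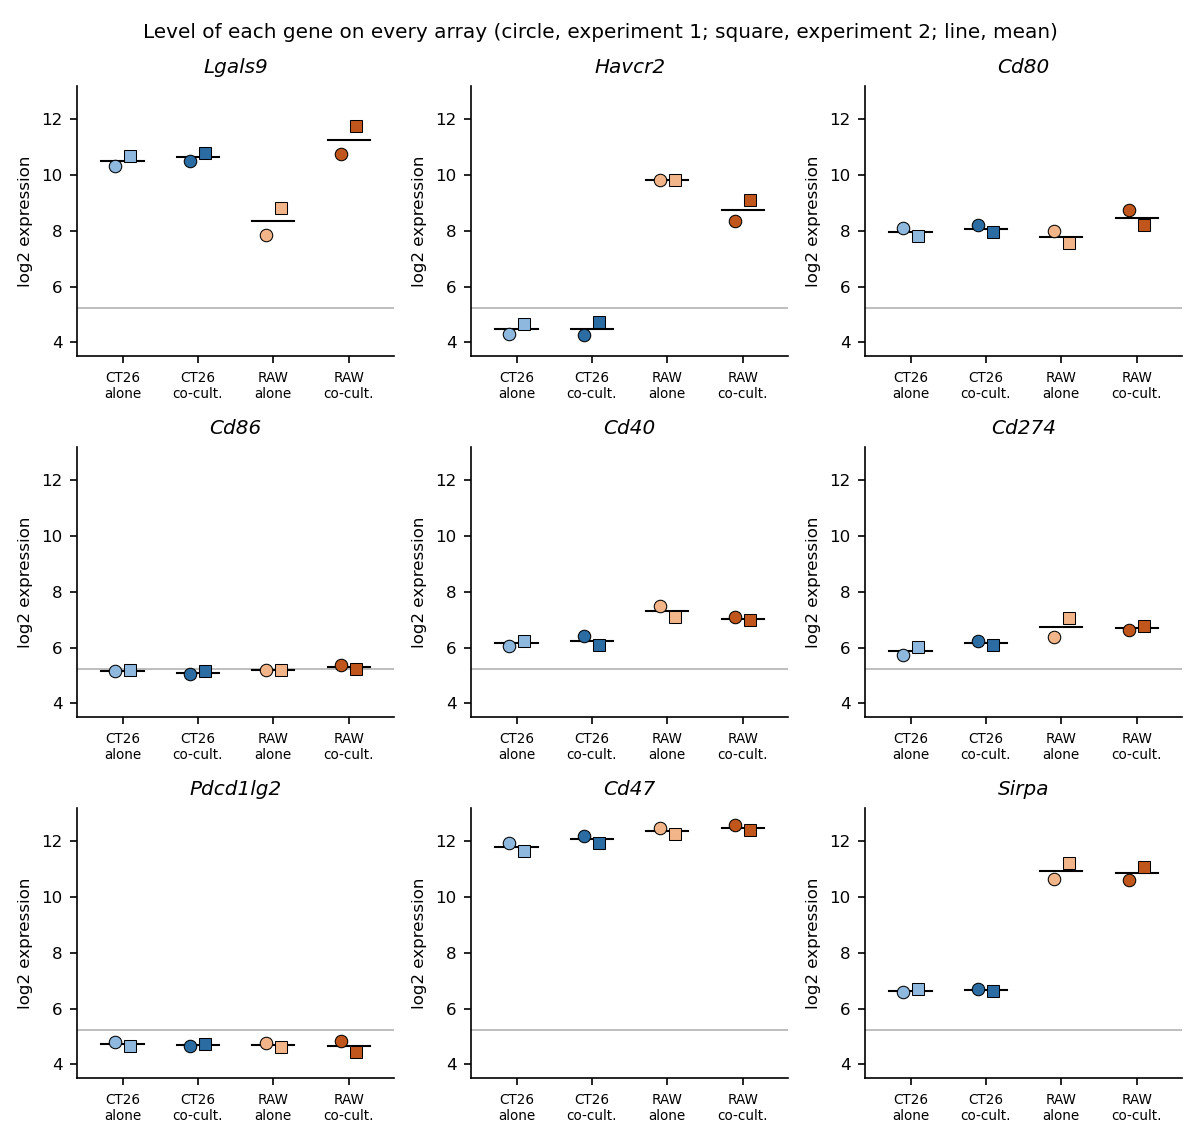
Log2 expression (vertical axis) of the brightest probe set of each of the 9 genes on all 8 arrays, by group (horizontal axis), with a line at each mean of 2 arrays and a grey band for the floor of 5.21 to 5.28. Lgals9 is low only in RAW alone, Havcr2 and Sirpa are high in both RAW groups, and Pdcd1lg2 lies under the floor on every array.

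The genes whose centred profile over the 8 arrays lay nearest to that of Lgals9 were Oasl1, Bst2 and Ifit1, all known as interferon-stimulated genes, at root mean square distances of 0.618, 0.647 and 0.690 log2 units and Pearson correlations of 0.854, 0.858 and 0.841. These correlations are descriptions over 8 arrays that share 2 experiments and 2 lines. Oasl1, of the oligoadenylate synthetase family, had 9.17 and 8.97 in RAW alone and 11.30 and 11.54 in RAW co-culture, and rose by 2.35 ± 0.21 (adjusted p = 0.0228). Bst2, which tethers budding virus particles to the cell, differed by 1.85 ± 0.26 (adjusted p = 0.0599, and 0.000168 with separate blocks). Ifit1, which binds viral RNA, differed by 1.96 ± 0.48 (adjusted p = 0.395, and 0.00330 with separate blocks), with RAW alone values of 4.61, under the floor, and 5.32, just above it. All 3 genes were lower in RAW alone than in CT26 alone, as Lgals9 was. They were picked for their likeness to Lgals9 on these same arrays, so this and their RAW changes are no separate support. Their distances from Lgals9 were larger than those between any other tested checkpoint gene and its nearest genes.

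Promoter sequences from RefSeq (assembly GRCm38.p6) are shown for Lgals9 and for the pair of these neighbours whose promoters held the same motif. They are given because they let the letters of the matches be read side by side. All 250 bases are printed for Lgals9, and only the 60 bases around the matches for Bst2 and Ifit1. The motif is the core of the interferon-stimulated response element, GAAANNGAAA, searched on both strands in the 250 bases before each transcription start. Capitals mark its matches, the strand shown is the gene's own, and a match is a run of letters, not a binding measurement.

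Lgals9 (chr11:78984925-78985174, minus strand): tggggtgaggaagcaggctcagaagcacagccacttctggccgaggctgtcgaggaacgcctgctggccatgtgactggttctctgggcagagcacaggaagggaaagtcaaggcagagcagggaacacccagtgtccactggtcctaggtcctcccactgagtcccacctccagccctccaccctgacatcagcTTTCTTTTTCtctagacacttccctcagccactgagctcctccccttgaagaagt
Bst2 (chr8:71537566-71537625, minus strand): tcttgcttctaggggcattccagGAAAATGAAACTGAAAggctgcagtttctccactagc
Ifit1 (chr19:34640769-34640828, plus strand): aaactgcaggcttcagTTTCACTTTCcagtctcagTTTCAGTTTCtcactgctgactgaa

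In Lgals9 the match lies at bases -55 to -46 from the start, on the opposite strand, where it reads GAAAAAGAAA. In Bst2 a pair of overlapping matches spans -130 to -121 and -124 to -115 on the gene's strand, and in Ifit1 the matches lie at -104 to -95 and -85 to -76 on the opposite strand. Of 32851 promoter windows of this length, 2.98% held at least 1 such match. The Oasl1 window held none.

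Of the 9 checkpoint genes 6 had a promoter entry, with 7 windows, and Lgals9 was the one with a match of this core. The GAS palindrome TTCNNNGAA, found in 7.02% of all windows, matched in none of the 7. The NF-kB consensus, found in 7.25% of windows, matched at -244 to -235 of Pdcd1lg2. The windows of Cd274, Cd80, Cd47 and Havcr2 held no match of the 3 motifs, and Cd86, Cd40 and Sirpa were not in the table used here.

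Havcr2, which encodes TIM3, was high in RAW alone and lower in RAW co-culture. Its probe set (1451584_at) read 9.83 and 9.83 in RAW alone, then 8.37 and 9.11 in RAW co-culture. Both co-cultured arrays lay below both arrays of RAW alone, and all 4 CT26 arrays, at 4.29, 4.66, 4.27 and 4.72, lay under the floor. The gene therefore entered the test through RAW cells, where it is high, and its CT26 change of 0.02 ± 0.28 describes values near background.

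The RAW means of Havcr2 were 9.83 ± 0.0038 and 8.74 ± 0.52 (SD, n = 2), a difference of -1.09 ± 0.28 log2 units (interval -1.75 to -0.43), or 2.13-fold lower. It was not called without a block (adjusted p = 0.414), and it was called with the shared block (adjusted p = 0.0408) and the block per line (adjusted p = 0.0186). Its change was the 44th lowest of 13196. The experiments differed in size, at -1.46 in experiment 1 and -0.72 in experiment 2, so that without RAW co-culture of experiment 1 the difference was -0.72. The difference from the CT26 change, -1.11 ± 0.39, was not called in any of the 3 fits (adjusted p = 1.00, 0.292 and 0.116).

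Nearest to Havcr2 in profile were Adgre1, a macrophage marker, Lipa, the lysosomal acid lipase, and Klhl6, with distances of 0.223, 0.316 and 0.327 log2 units. Adgre1 had a RAW difference of -0.75 ± 0.30 (adjusted p = 0.916, 0.0879 with the shared block and 0.0306 per line), Lipa of -0.77 ± 0.15 (adjusted p = 0.196, and 0.00548 per line) and Klhl6 of -1.05 ± 0.30 (adjusted p = 0.541, and 0.0975 per line). Other myeloid markers had differences of either sign or near 0. Fcgr1, an Fc receptor gene, differed by 1.77 ± 0.24 (adjusted p = 0.0585, and 0.00722 per line), Itgax, a dendritic cell and macrophage integrin, by -1.18 ± 0.25 (adjusted p = 0.277, and 0.00746 per line), and the lysozyme gene Lyz2 by 0.0019 ± 0.18. The part of macrophage state in the Havcr2 difference was not tested.

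**Figure D2:**
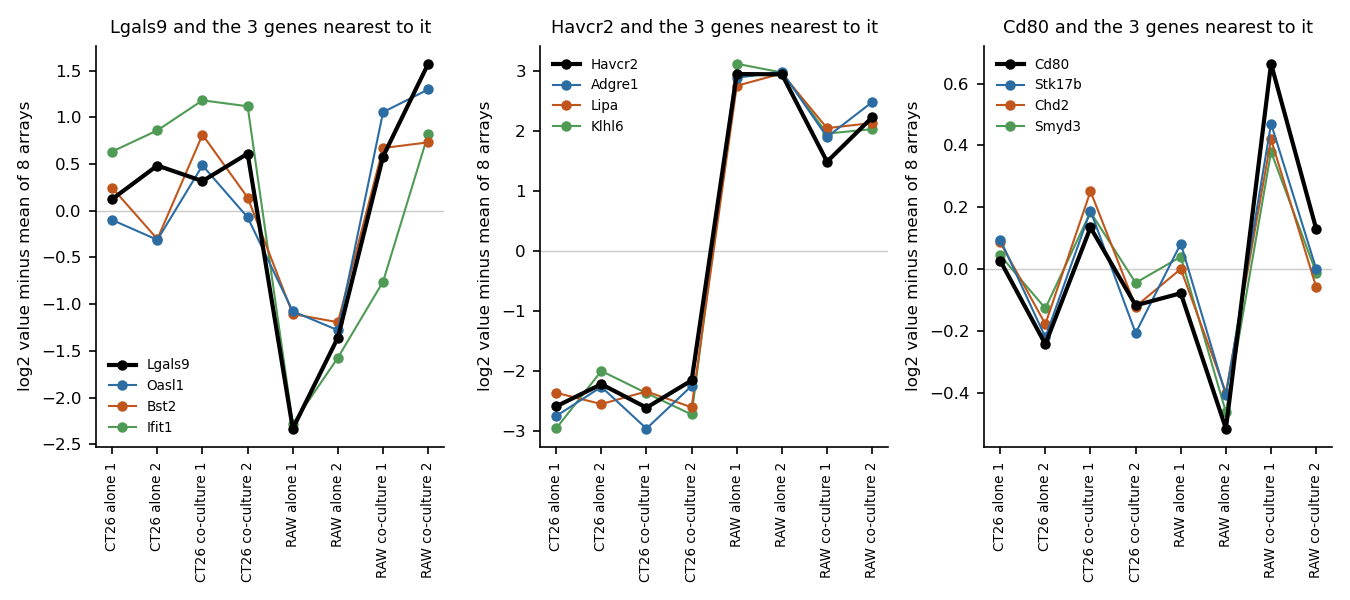
Log2 values minus each gene's mean of 8 arrays (vertical axis), array by array (horizontal axis), for Lgals9, Havcr2 and Cd80 and the 3 genes nearest to each. The neighbours of Havcr2 follow it closely (root mean square distances 0.223 to 0.327), whereas those of Lgals9 lie farther off (0.618 to 0.690).

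Cd80, the B7 ligand that binds both CD28 and CTLA4, was modestly higher in co-cultured RAW cells. Its brightest probe set (1451950_a_at) read 7.99 and 7.55 in RAW alone and 8.74 and 8.20 in RAW co-culture. Both co-culture arrays exceeded both arrays of RAW alone, and in each group experiment 1 was the higher. CT26 cells carried a similar level, 8.10 and 7.83 alone and 8.21 and 7.95 in co-culture, with overlapping groups.

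In RAW cells the difference was 0.69 ± 0.24 log2 units (interval 0.13 to 1.26), or 1.62-fold, with 0.74 in experiment 1 and 0.65 in experiment 2. Without a block it was not called (adjusted p = 0.743), whereas both the shared block (adjusted p = 0.0408) and the block per line (adjusted p = 0.00754) gave a call. Without RAW co-culture of experiment 1 the difference was 0.43. A separate probe set of the gene (1432826_a_at), with 7.01 and 6.73 in RAW alone and 7.63 and 7.57 in RAW co-culture, differed by 0.73 ± 0.14, in the same direction. The 2 remaining Cd80 probe sets did not pass the floor, at means of 4.81 and 4.53 over the 8 arrays.

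In CT26 the Cd80 change was 0.12 ± 0.24 (interval -0.44 to 0.68; adjusted p = 1.00). The RAW change exceeded it by 0.58 ± 0.33, which was not called (adjusted p = 1.00, 0.401 with the shared block and 0.109 per line). The genes nearest to Cd80 over the arrays were Stk17b, Chd2 and Smyd3, at distances of 0.116, 0.131 and 0.132 log2 units, and their RAW differences of 0.40 ± 0.25, 0.38 ± 0.23 and 0.40 ± 0.22 were not called in the fit without a block or with a block per line.

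Cd86, the partner B7 ligand, was barely measurable. Its brighter probe set (1420404_at) read 5.21 and 5.20 in RAW alone and 5.37 and 5.23 in RAW co-culture, and 5.15, 5.19, 5.04 and 5.16 in the CT26 groups. It passed the floor through RAW co-culture alone. The RAW difference was 0.095 ± 0.11 (interval -0.18 to 0.37; adjusted p = 1.00), and its other probe set (1449858_at) stood at 4.89 and 4.90 in RAW alone and 5.01 and 5.54 in co-culture, above the floor on 1 of 8 arrays. Any change of Cd86 was not detectable at this signal. Its nearest profiles were Cnot10, Gm10658 and Nhp2, at 0.0333, 0.0358 and 0.0364 log2 units, within a range of 0.32 over the 8 arrays.

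Cd40, the receptor through which helper T cells license presenting cells, was higher in RAW than in CT26, but its probe sets disagreed on co-culture. The brightest (1449473_s_at) read 7.49 and 7.11 in RAW alone and 7.08 and 7.0 in RAW co-culture, a difference of -0.26 ± 0.18 (interval -0.68 to 0.17; adjusted p = 1.00). Probe set 1460415_a_at read 7.38 and 7.03 against 8.09 and 7.12, a difference of 0.40 ± 0.33. Probe set 1439221_s_at read 7.0 and 6.65 against 7.71 and 7.34, a difference of 0.70 ± 0.21, with 0.70 and 0.69 in the 2 experiments, and no call (adjusted p over all probe sets 0.743, and 0.0606 with a block per line).

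The first of these probe sets thus ran down and the others up, and no direction is given for Cd40 in co-cultured RAW cells. The mean of the 3 probe sets differed by 0.28 in RAW. The CT26 arrays of the brightest probe set, 6.07 and 6.24 alone and 6.42 and 6.09 in co-culture, overlapped, with a change of 0.10 ± 0.18. Nearest to that probe set in profile were Echdc1, Pigh and Tmem219, at 0.0992, 0.102 and 0.105 log2 units, all 3 also called higher in RAW when each line grew alone.

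The PD1 ligands showed no called change in either line. The PD-L1 gene Cd274 (1419714_at) read 6.37 and 7.08 in RAW alone and 6.62 and 6.79 in RAW co-culture, so the groups overlapped and the experiments differed in sign, at 0.25 and -0.29. In CT26 it read 5.72 and 6.01 alone and 6.25 and 6.08 in co-culture, groups that did not overlap. The CT26 change of 0.31 ± 0.24 (interval -0.27 to 0.88; adjusted p = 1.00) came mainly from experiment 1, at 0.53 against 0.08 in experiment 2, and the RAW change was -0.02 ± 0.24 (interval -0.60 to 0.55; adjusted p = 1.00). The arrays therefore do not exclude a CT26 change of up to 0.88 log2 units.

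The nearest profiles to Cd274 were those of Siglece, Nudt16 and Zfp446, at distances of 0.115, 0.122 and 0.125 log2 units. PD-L2, from Pdcd1lg2 (1450290_at), lay under the floor on all 8 arrays, between 4.46 and 4.83, and was not tested. Its RAW values were 4.75 and 4.62 alone and 4.83 and 4.46 in co-culture, with no separation between groups.

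Cd47, the antiphagocytic ligand, was bright in every group. Its brightest probe set (1449507_a_at) read 12.47 and 12.27 in RAW alone and 12.60 and 12.40 in RAW co-culture, and 11.96 and 11.66 in CT26 alone and 12.21 and 11.93 in CT26 co-culture. The groups overlapped within each line, with experiment 1 the higher throughout. Within each experiment the CT26 change was 0.25 and 0.27, and the fit gave 0.26 ± 0.17 (interval -0.14 to 0.66; adjusted p = 1.00).

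The other 2 Cd47 probe sets above the floor had CT26 changes of 0.24 and 0.28 (1419554_at) and of 0.31 and 0.27 (1428187_at), so all 3 were higher in co-culture in both experiments. Cd47 reached an unadjusted p under 0.05 in CT26 with either block, but no adjusted call (adjusted p = 0.761 with a block per line). In RAW the 3 probe sets had changes of 0.13 and 0.13, of -0.19 and -0.02, and of -0.08 and -0.12, and the fitted change was 0.13 ± 0.17 (adjusted p = 1.00). The mean of all 5 probe sets gave -0.01 in RAW. Nearest in profile were Psma4, Vps8 and Trem1, at 0.0749, 0.0802 and 0.0812 log2 units.

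Sirpa, the receptor of CD47, was a macrophage transcript here and did not move detectably. Its brightest probe set (1448534_at) read 10.64 and 11.21 in RAW alone and 10.63 and 11.09 in RAW co-culture, against 6.59 and 6.70 in CT26 alone and 6.72 and 6.64 in CT26 co-culture. The RAW groups overlapped, with a change of -0.06 ± 0.23 (interval -0.60 to 0.47; adjusted p = 1.00), and the CT26 change was 0.03 ± 0.23. The other probe sets had RAW changes of 0.04 and -0.33 (1416985_at) and of 0.07 and 0.23 (1416986_a_at). Its nearest profiles were Nol4l, Myo1g and Gpr65, at 0.123, 0.127 and 0.128 log2 units.

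**Figure D3:**
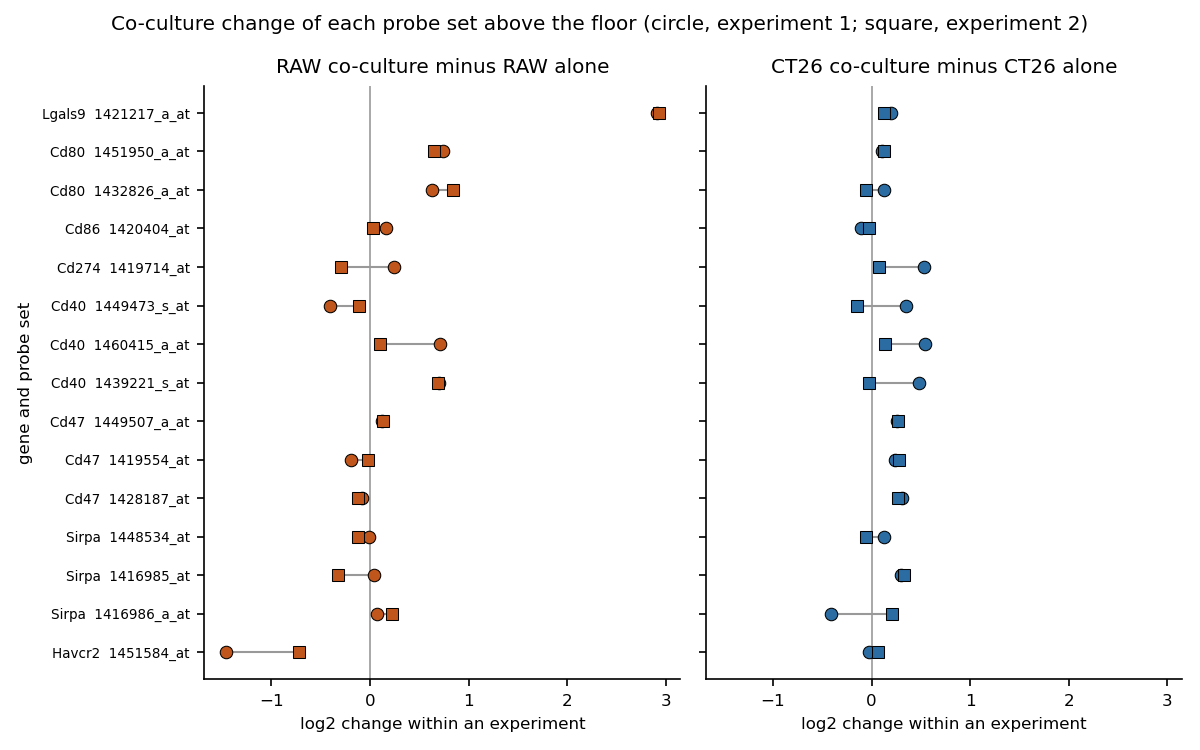
Log2 change of each of the 15 probe sets above the floor (vertical axis), co-culture minus alone within experiment 1 (circle) and experiment 2 (square), for RAW on the left and CT26 on the right. In RAW, Lgals9 stands near 2.9 in both experiments, both Cd80 probe sets are positive, Havcr2 is negative, and the 3 Cd40 probe sets spread on both sides of 0.

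Counted over the 8 tested genes, co-culture changed 0 in RAW by limma without a block, against 0.25% of all genes, with 3 (Cd80, Havcr2 and Lgals9) at an unadjusted p under 0.05 and 694 such genes in all. With the shared block 3 of 8 were called, against 1.11% of all genes, and with a block per line the same 3 were called, against 3.56%. Of these Cd80 and Lgals9 were higher in co-culture and Havcr2 lower. On the scale of probe sets, 0 of 15 were called without a block (0.11% of all), 1 with the shared block (0.513%), from Lgals9, and 4 with a block per line (2.24%), from Lgals9, Havcr2 and the 2 brighter Cd80 probe sets. The median change of the 8 genes in RAW was 0.04, beside 0.0083 over all genes.

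By the brightest probe set, RAW co-culture lay wholly above RAW alone for 3 of 8 genes (Cd80, Cd86 and Lgals9), as for 14.2% of all genes, and wholly below for 2 (Cd40 and Havcr2), as for 12.3%. Of these, Cd86 lay at the floor and was tested only because its RAW co-culture arrays passed it, and a different Cd40 probe set (1439221_s_at) lay wholly above, so neither gene is read as higher or lower. In CT26 limma called 0 of 8 with or without a block, as it called 0% of all genes in each fit, with 0 of 8 at an unadjusted p under 0.05 without a block and 107 genes in all. CT26 co-culture lay wholly above CT26 alone for 1 gene (Cd274), as for 9.69% of all genes, and wholly below for 0, against 11.3%. Its median change was 0.11, beside -0.012 over all genes.

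The difference between the RAW and CT26 changes was called for 0 of 8 genes without a block (0.00758% of all genes), with 2, Havcr2 and Lgals9, at an unadjusted p under 0.05. It was called for Lgals9 alone with the shared block (0.0834%) and with separate blocks (0.743%).

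**Figure D4:**
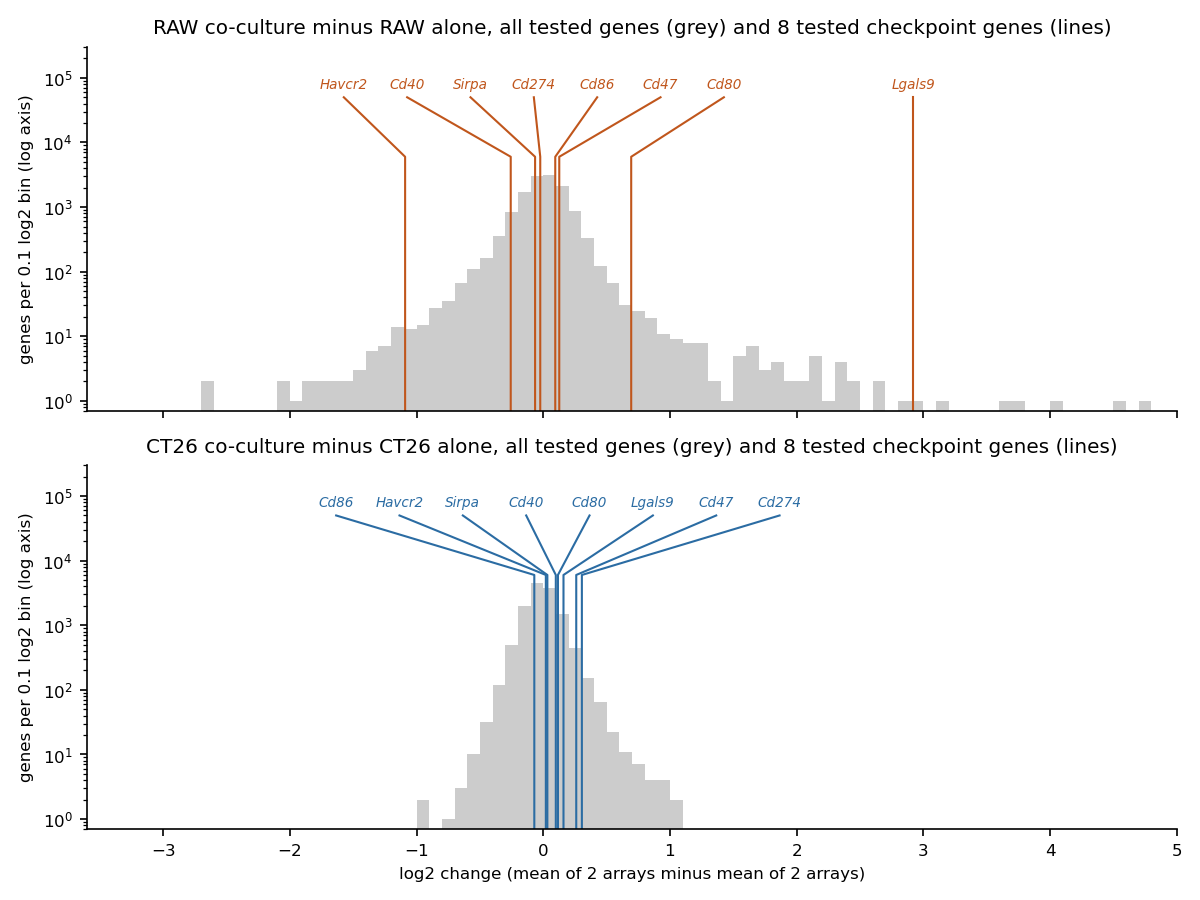
Number of genes (vertical axis, log scale) by log2 change (horizontal axis, bins of 0.1) over all 13196 tested genes in RAW (top) and CT26 (bottom), with lines at the changes of the 8 tested checkpoint genes. In RAW, Lgals9 at 2.92 lies in the sparse upper tail, Havcr2 at -1.09 and Cd80 at 0.69 lie on the shoulders, and in CT26 all 8 lie between -0.07 and 0.31.

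The lines themselves, each grown alone, differed for most of these genes. Grown alone, RAW cells were called higher than CT26 cells for Havcr2, Sirpa, Cd40, Cd274 and Cd47 and lower for Lgals9, 6 of 8 genes without a block, beside 34.6% of all genes, and the same 6 with the shared block (52.9%) or separate blocks (58.6%). Havcr2 differed by 5.36 ± 0.28 log2 units (adjusted p = 9.86e-06) and Sirpa by 4.28 ± 0.23, or 19.5-fold (adjusted p = 1.10e-05). Since Havcr2 in CT26 was under the floor, its fold is not well measured. Cd40 was higher in RAW by 1.14 ± 0.18 (adjusted p = 0.00249), Cd274 by 0.86 ± 0.24 (adjusted p = 0.0308) and Cd47 by 0.56 ± 0.17 (adjusted p = 0.0405). The Cd47 value is that of its brightest probe set, and the others above the floor differed by 0.35 ± 0.13 and 0.22 ± 0.20. Adjusted over all probe sets, limma without a block called none of them (adjusted p = 0.0502, 0.0868 and 0.475, brightest first).

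Lgals9 went the other way, at -2.15 ± 0.41 (adjusted p = 0.00634), or 4.43-fold lower in RAW alone. Cd80 and Cd86 were not called, at -0.19 ± 0.24 (adjusted p = 0.592) and 0.03 ± 0.11 (adjusted p = 0.864). The calls of Cd274 and Cd47 rested on few arrays. Cd274 was lost without either CT26 alone array (adjusted p = 0.152 and 0.0660) and without RAW alone of experiment 2, where the difference was 0.51 (adjusted p = 0.108). Cd47 was lost on leaving out any 1 array of 6, those of CT26 alone, RAW alone and RAW co-culture.

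In co-culture RAW exceeded CT26 for Havcr2, Sirpa and Cd40 without a block, 3 of 8 genes beside 34.8% of all genes. That count is near the share of all genes and is no result about the set. With the shared block 6 of 8 were called, Cd47, Cd80 and Lgals9 being added, beside 52.1% of all genes, and with a block per line 7 of 8, Cd274 included, beside 58%. The Cd47 calls are of its brightest probe set. Its other probe sets above the floor differed by -0.02 ± 0.13 (1419554_at) and -0.17 ± 0.20 (1428187_at), so no direction is given for Cd47 in co-culture. The difference of Havcr2 was 4.25 ± 0.28 and that of Sirpa 4.19 ± 0.23. That of Cd40 was 0.79 ± 0.18 (adjusted p = 0.0131), a call lost without RAW co-culture of experiment 1 (adjusted p = 0.0624) or CT26 co-culture of experiment 2 (adjusted p = 0.0798).

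The log2 difference of RAW minus CT26 for Lgals9 was thus -2.15 alone and 0.61 ± 0.41 in co-culture (adjusted p = 0.307, 0.0370 with the shared block and 0.000563 per line). By level, Lgals9 ran from RAW alone at 8.35 through CT26 alone at 10.50 and CT26 co-culture at 10.66 to RAW co-culture at 11.27, and the neighbouring CT26 groups did not differ beyond their spread. For Havcr2 both CT26 groups were under the floor and have no order, followed by RAW co-culture and RAW alone, and for Cd80 the order was RAW alone, CT26 alone, CT26 co-culture and RAW co-culture, with 7.77, 7.96, 8.08 and 8.47.

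Partners and regulators of these genes were read from 7 lists of 82 genes, of which 58 were tested and 24 were not. Without a block limma called 0 of the 58 in RAW, beside 0.25% of all genes, and 0 in CT26, beside 0%. At an unadjusted p under 0.05 there was 1 of 58 in each line, against 694 of 13196 genes in RAW and 107 in CT26. In RAW 1 was called with the shared block, beside 1.11% of all genes, and 2 with separate blocks, beside 3.56%, shares near those of all genes, and in CT26 0 were called with either. These counts are therefore no result about the lists, and the genes below are described singly. Both genes called with separate blocks belong to the list of other B7 and immunoglobulin-family ligands, of which 9 of 12 were tested, with a median RAW change of -0.08.

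Nectin3, an adhesion molecule of the family that holds the TIGIT ligands, fell from 11.42 ± 0.0078 to 10.56 ± 0.07 in RAW with either block, a change of -0.86 ± 0.20 (adjusted p = 0.339 without a block, 0.0458 shared and 0.00316 per line). Cd276, which encodes B7-H3 and is named because the block per line called it, changed by -0.67 ± 0.36 (adjusted p = 1.00, and 0.0189 per line). Pvr, a ligand of TIGIT and CD226, had a RAW change of 0.49 ± 0.21 (adjusted p = 0.953, and 0.0668 per line), and Cd48, a ligand of the receptor 2B4, had -0.06 ± 0.28. In CT26 the changes of Pvr, Nectin3 and Cd48 were 0.27 ± 0.21, -0.10 ± 0.20 and -0.38 ± 0.28, none of them called.

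Among TNF-family ligands 3 of 8 were tested and 0 called. The CD40 ligand gene Cd40lg had 5.34 ± 0.22 in RAW alone and 5.47 ± 0.13 in RAW co-culture, near the floor, and Tnfsf14 had 5.48 ± 0.09 and 5.60 ± 0.09. Of the T-cell side receptors 4 of 13 were tested and 0 called, while Pdcd1, Ctla4 and Cd28, the receptors of the B7 ligands above, did not pass the floor. The one listed gene at an unadjusted p under 0.05 in CT26 was Tnfrsf9, which encodes the costimulatory receptor 4-1BB. It stood at 7.50 ± 0.24 in CT26 alone and 8.44 ± 0.20 in CT26 co-culture, a change of 0.94 ± 0.18 (adjusted p = 1.00, and 0.287 per line), with 1.25 in experiment 1 and 0.63 in experiment 2, while Tnfrsf9 in RAW had -0.16 ± 0.18. Tnfrsf4, which encodes OX40, had -0.17 ± 0.11 in RAW.

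On the axis of CD47 and SIRPA, 13 of 15 genes were tested, 0 were called and the median RAW change was -0.04. Thbs1 and Thbs2, which encode thrombospondins, the first a known ligand of CD47, were CT26 transcripts at 9.78 ± 0.32 and 9.98 ± 0.05 alone and changed by -0.11 ± 0.21 and 0.04 ± 0.11 in CT26. Mertk, a receptor for the uptake of dying cells, changed by -0.30 ± 0.23 in CT26 and -0.07 ± 0.23 in RAW. Among galectins and TIM3 partners 6 of 8 were tested and 0 called, with a median of -0.04 in RAW. Lgals8, the galectin-8 gene, differed there by 0.36 ± 0.21 and P4hb, a disulfide isomerase reported to bind galectin-9, by 0.24 ± 0.30, against 2.92 for Lgals9.

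For CD40 signalling 9 of 10 genes were tested and 0 called. The adaptor genes Traf1 and Traf6 had RAW changes of 0.42 ± 0.29 and 0.25 ± 0.25, and Birc3, an inhibitor of apoptosis, had 0.0027 ± 0.19 in RAW and 0.39 ± 0.19 in CT26. Of the regulators of PD-L1 14 of 16 were tested and 0 called, with a median RAW change of 0.00035. Irf1, the transcription factor through which interferon-gamma induces PD-L1, had 8.76 ± 0.31 in RAW alone and 9.14 ± 0.18 in RAW co-culture, a change of 0.38 ± 0.17 (adjusted p = 1.00, and 0.0925 per line), and 0.19 ± 0.17 in CT26. Cmtm6, which stabilises the PD-L1 protein, changed by 0.16 ± 0.12 in RAW, and the interferon-gamma receptor subunit gene Ifngr2 by -0.06 ± 0.15 in RAW and 0.29 ± 0.15 in CT26.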

How the data were processed

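RNA of 8 samples was measured on single-colour Affymetrix mouse arrays, 1 array per sample. Per the submitters' processing notes, the authors computed the deposited log2 values by RMA (affy); the sources used here give neither version nor settings. Array medians of 5.88 to 5.94 fit a normalization across arrays, which removes differences in total RNA per cell, and RMA compresses signals near background. Precision is limited by how few arrays there are.

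Of 45101 probe sets, 64 controls were left out. Of the other 45037, 34945 had 1 gene symbol in the platform annotation, 932 several and 9160 none. A gene was represented by its brightest probe set with 1 symbol and tested if both arrays of 1 or more groups read above their 40th percentile. With limma 3.58.1 (R 4.3.3), group means were estimated from all 8 arrays (4 residual degrees of freedom, two-sided, Benjamini-Hochberg over 13196 genes). The fit without a block was first tested on simulated data that held no shift between experiments. The fits with a block were not tested in that way. Probe sets above the floor were fitted likewise, over 28287. Errors of changes are standard errors, those of levels SDs.

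The labels number the experiments, and arrays of the same number deviated from their group means together in every pair of groups (r = 0.484 to 0.765 across genes), so the numbers were taken to pair the arrays. The fit without a block is the main one, and fits with the experiment as a block are given beside it. Nothing says that samples came from separate stocks of cells, so p-values without a block measure the spread between 2 experiments. With a block they measure the spread left once the shift between experiments is removed. The shared block leaves 3 residual degrees of freedom and the block per line 2, so the small p-values of those fits rest on little.

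The members and lists were chosen with earlier results of these data known. Named beside the 9 genes were the 3 tested genes nearest in profile to each, and from each list the genes called or, with none called, the 2 with the largest moderated statistic in RAW and the 1 in CT26. Cd276, the markers and listed genes under the floor are named outside that rule, after their values were seen. Profile likeness is the root mean square difference of centred log2 values. Genes near in profile were picked on these same arrays, so their changes and p-values are descriptions and no separate support. Promoters were matched to RefSeq entries by symbol. Alternatives were both blocks, the mean of probe sets, other floors, cyclic loess, an intensity trend, the compared arrays alone and each array left out. Blocks for single probe sets were added after seeing the data.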

Additional observations from a re-analysis of the deposited data

Results flagged for a closer look

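The co-culture change of Lgals9 differed between the lines, by 2.76 log2 units (RAW change minus CT26 change). The difference passed with the experiment as a block shared by the lines (limma, adjusted p = 0.0438) or separate blocks for the lines (adjusted p = 0.000529), but not without a block (adjusted p = 0.643). No group was large enough to be searched for single outlying arrays.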

How the results depend on the processing

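Counts of called genes depended on the block, which removes the shift between experiments and leaves fewer residual degrees of freedom. The part of each in the counts was not tested. With the replicate block, shared or per line, RAW co-culture against RAW alone gave 3 called genes in place of 0, the difference between lines 1 in place of 0, and RAW against CT26 in co-culture 6 (shared) or 7 (per line) in place of 3. The pairing changed no other count of these genes. With the mean of all probe sets of a gene, 3 values turned in sign, Cd40 in RAW to 0.28, Cd47 in RAW to -0.013 and the Cd40 difference between lines to 0.059, and Cd47 of RAW alone against CT26 alone was lost at 0.19. The latter comparison also lost Cd274 and Cd47 when fitted on its own arrays. With the floor at the 60th percentile Cd274 and Cd86 were too dim to be tested, and Cd86 was also not tested with the mean of all probe sets. Leaving out each array in turn gave 4 to 6 called genes for the lines grown alone, 2 to 4 for the lines in co-culture and 0 for the other comparisons. Over these fits Lgals9 in RAW ranged from 2.42 to 3.42, Havcr2 from -1.46 to -0.72 and Cd80 from 0.43 to 0.96. Small changes turned in sign. In CT26, Cd40 ranged from -0.069 to 0.27, Cd80 from -0.019 to 0.25, Havcr2 from -0.21 to 0.25, Lgals9 from -0.020 to 0.34 and Sirpa from -0.021 to 0.087. In RAW, Cd274 ranged from -0.38 to 0.33 and Sirpa from -0.35 to 0.22. Between the lines' changes, Cd274 ranged from -0.68 to 0.026, Cd47 from -0.28 to 0.015 and Sirpa from -0.38 to 0.19, and Cd80 of RAW alone against CT26 alone ranged from -0.41 to 0.030. Over all genes the count called in RAW fell from 33 to between 2 and 7 without any 1 RAW array, to 3 without either CT26 alone array and to 30 without either CT26 co-culture array. When only the RAW arrays were fitted, Lgals9 in RAW was again not called (limma without a block, adjusted p = 0.307). That fit called 4 of 12608 genes in RAW. Fitting only the compared arrays gives no value for the difference between lines. The cause of these shifts was not tested. Cd86, Pdcd1lg2 and the CT26 values of Havcr2 lie at or under the floor, which limits what can be read from them.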
